A study of Homo sapiens with 64 samples.

Results

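The genes described here encode the machinery of DNA replication and the S-phase program of 6 human colorectal cancer cell lines. They were chosen by symbol, 43 symbols in all, from the helicase, the origin licensing factors, the polymerases and the factors that load, protect and switch on the replication fork. Through their Ensembl identifiers 42 of the 43 were found among the 54127 genes counted in the deposited libraries, and UHRF1 was not analysed here. The rule itself names symbols and no measured value, although the list was drawn up with earlier results of these data known. All 42 passed the filter on low counts in every comparison.

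The study labeled HT55, SW948, RKO, SW48, DLD1 and HCT15 cells with CFSE, a dye that is shared out between daughter cells and so fades with each division, and grew them as non-adherent spheroids with bFGF and EGF. At day 6 each line was sorted into label-retaining cells (LRC, dye kept) and the remaining cycling population (non-LRC), with 4 replicates of each. A control experiment in DLD1 compared unsorted bulk cells with and without CFSE, 4 replicates each, at an early and a late time that the sample labels call day 1 and day 5. The series text puts that late time at day 6, so day 5 is used here as the label only. The labels name no engineered change in any line, each group is a single cell line in culture, and the replicates are described by the study as biological.

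Before S phase, the origin recognition complex, CDC6 and CDT1 load the ring of MCM2 to MCM7 onto DNA, which licenses an origin for firing. CDC45 and the GINS complex switch the ring on as a helicase, PCNA (the sliding clamp, loaded by replication factor C) tethers the polymerases, and FEN1 and LIG1 process and join the lagging-strand fragments. E2F transcription factors, released from the retinoblastoma protein as cyclin E activity rises, are known to drive transcription of much of this set, so that its mRNA level is widely read as a mark of cycling cells.

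Promoter sequence was used to see how many members carry the classical E2F word, since the rule that chose them did not use it. Promoters of 300 bases, from 250 before to 50 after the RefSeq start (GRCh38.p14), were given for 36 of the 42 genes. The words TTTCCCGC, TTTGGCGC, TTTCGCGC and TTTGCCGC were searched on both strands, and overlapping words were each counted. At least 1 of them stood in 21 of the 36 member promoters (58.3%) and in 908 of 27305 promoters of all genes (3.33%). On separate lists, it was 5 of 29 promoters of other replication genes (17.2%) and 3 of 9 of other E2F and pocket-protein genes (33.3%). For genes that supply nucleotides it was 1 of 7 (14.3%), and for mitotic genes 1 of 13 (7.69%). The CHR word TTTGAA, typical of mitotic genes, stood in 0 of the 36 member promoters, in 8 of 13 mitotic promoters on a separate list (61.5%) and in 15.4% of all promoters. To show where the word lies, 7 members named in the results below were picked among those that hold it near the start, and they do not stand for the set: 15 of the 36 promoters held none, among them those of CCNE1, FEN1, MCM10, ORC6, POLD1 and RFC5, and in LIG1 and POLA1 it lay further upstream. They are shown from 100 bases before to 30 after the start, 5′ to 3′ on the strand of the gene, with every match to the 4 words in capitals. No other form of an E2F site was searched, so a promoter or stretch without a match may still hold another form.
CDC6, chr17:40287779-40287908, plus strand: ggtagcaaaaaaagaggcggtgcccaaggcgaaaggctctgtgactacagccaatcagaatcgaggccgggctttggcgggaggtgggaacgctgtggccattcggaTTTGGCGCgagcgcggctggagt
CDCA7, chr2:173354772-173354901, plus strand: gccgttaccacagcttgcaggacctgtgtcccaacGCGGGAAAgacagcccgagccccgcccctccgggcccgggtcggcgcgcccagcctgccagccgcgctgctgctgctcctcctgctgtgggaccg
E2F1, chr20:33686356-33686485, minus strand: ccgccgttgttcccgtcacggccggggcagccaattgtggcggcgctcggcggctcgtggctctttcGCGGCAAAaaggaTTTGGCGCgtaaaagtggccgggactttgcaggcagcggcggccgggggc
GINS2, chr16:85688925-85689054, minus strand: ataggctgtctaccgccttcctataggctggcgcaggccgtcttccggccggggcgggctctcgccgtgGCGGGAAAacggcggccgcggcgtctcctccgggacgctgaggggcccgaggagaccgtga
MCM6, chr2:135876414-135876543, minus strand: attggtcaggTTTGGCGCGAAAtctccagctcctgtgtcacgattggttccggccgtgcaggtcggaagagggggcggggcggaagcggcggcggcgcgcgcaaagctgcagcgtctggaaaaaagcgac
PCNA, chr20:5126593-5126722, minus strand: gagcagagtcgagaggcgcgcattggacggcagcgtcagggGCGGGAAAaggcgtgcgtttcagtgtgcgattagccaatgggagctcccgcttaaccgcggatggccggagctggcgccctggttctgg
POLE2, chr14:49688185-49688314, minus strand: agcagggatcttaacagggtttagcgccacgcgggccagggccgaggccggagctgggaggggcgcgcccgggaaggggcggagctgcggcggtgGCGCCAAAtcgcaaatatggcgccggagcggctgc
In MCM6 a pair of words overlapped in 1 run of capitals, and E2F1 held 2 separate words. A match describes letters only. Members with and without a word had medians of −0.26 and −0.19 (log2 fold change, LRC minus non-LRC across the 6 lines, 21 and 15 genes). Of these, 13 and 6 passed the test given below, where 10.7% of all genes were lower and 22.9% were called in either direction. The difference between members with and without a word was not tested.

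Each library held between 12237225 and 20913455 reads assigned to genes, with a median of 15063858. Levels are given in CPM, read counts relative to the gene reads of the library, with TMM scaling over all 64 libraries. As a check of the labels, the summed level of 8 epithelial markers lay between 2702 and 17426 CPM in 5 of the lines and between 219 and 334 CPM in RKO, in which CDH1, KRT19, KRT20 and VIL1 were near 0. Of 7 markers of other cell types, PTPRC and CD3E were at 0 in RKO, and the RKO sum, 999.9 to 1142 CPM in non-LRC and 1250 to 1616 CPM in LRC, came almost wholly from CD68. One control library stood apart: the library labeled unlabeled day 1, replicate 4, correlated better with the 4 unlabeled day 5 libraries (mean r = 0.986, log2 CPM across genes) than with the other 3 unlabeled day 1 libraries (mean r = 0.962). The counts of members in the control comparisons are therefore given with and without it.

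The summed level of the 42 genes separated all LRC from all non-LRC libraries in RKO and DLD1, while the groups overlapped in the other lines. In RKO the 4 non-LRC libraries held 3256, 3129, 3253 and 3046 CPM and the 4 LRC libraries 1672, 2052, 2353 and 2099 CPM, in replicate order. In DLD1 the non-LRC libraries held 2406, 2188, 2200 and 2294 CPM and the LRC libraries 1905, 1717, 1425 and 1427 CPM. These groups did not overlap in either line, and LRC replicate 1 was the lowest in RKO while LRC replicates 3 and 4 were the lowest in DLD1. In SW48 the non-LRC libraries held 1828, 3103, 1962 and 2053 CPM and the LRC libraries 1560, 2365, 1650 and 1658 CPM. Replicate 2 was high in both SW48 populations, and within each replicate number the LRC value was the lower one. In HCT15 the non-LRC libraries held 2009, 2220, 1637 and 1540 CPM and the LRC libraries 2277, 2298, 1672 and 1575 CPM, with the LRC value the higher one in each of the 4 numbers. HT55 was at 1121 to 1245 CPM in non-LRC and 1058 to 1314 CPM in LRC, and SW948 at 2626 to 2938 and 2468 to 2796 CPM, with overlap in both lines. In bulk RNA, fewer cells in S phase and less mRNA per cell cannot be told apart.

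**Figure D1:**
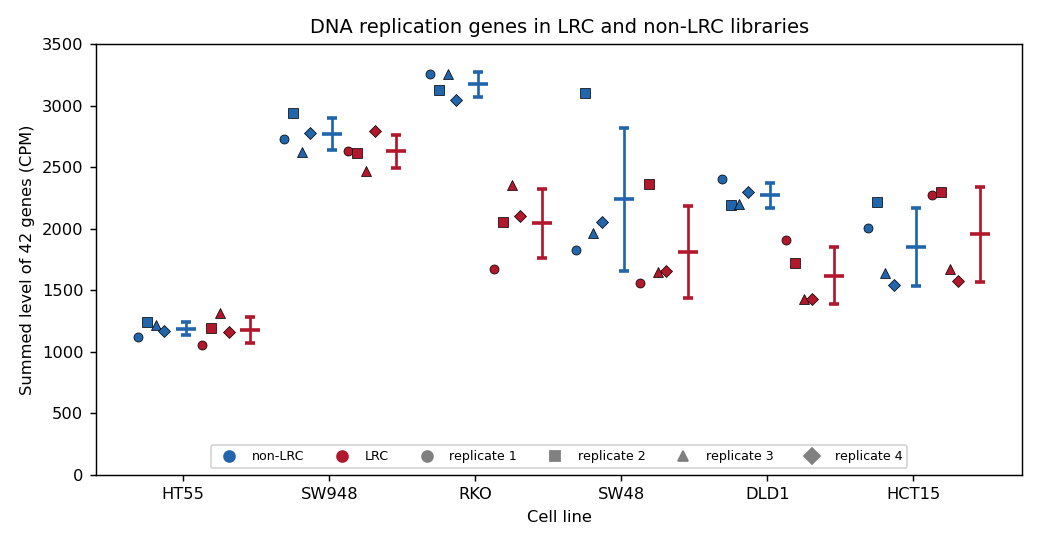
Summed level of the 42 genes (vertical axis, CPM, from 0) in every sorted library of the 6 lines (horizontal axis), with non-LRC in blue, LRC in red and a marker shape for each replicate number; the horizontal dash and bars are the mean and SD of 4 libraries. The LRC points lie below all non-LRC points in RKO and DLD1, and SW48 replicate 2 lies above its group in both populations.

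Averaged over the 6 lines, 22 of the 42 genes were lower in LRC and none was higher (edgeR quasi-likelihood test, adjusted p under 0.05), where 10.7% of the 16603 genes tested were lower and 22.9% were called in either direction. All 42 fold changes were below 0, as were 46.4% of those of all genes, with a median of −0.25 on the log2 scale against 0.01 for all genes. The count depended most on RKO and DLD1: without RKO 5 members were called, without DLD1 10 members, and without HCT15 31. It was 14 without replicate 3 and 13 without replicate 4 of every group. For these fits the share of all genes called is not given, so the counts show only how far the number moved. RKO and DLD1 were also the lines with the largest shares of all genes called in single-line fits (41.5% and 14.6%). All 6 subunits of the MCM ring were among the 22, and none of the 4 licensing factors. By the correlation of same-numbered libraries, replicate numbers paired the libraries in HT55, SW48, DLD1 and HCT15 but not in SW948 and RKO. In DLD1 and HCT15 some unlike numbers correlated as strongly, so there the pairing was not particular to the number. With the number as a block 33 members were called, all lower, while the share of all genes called rose to 25.5%.

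CDCA7, a cofactor of the chromatin remodeler HELLS, had the smallest p of the set across lines, at −0.45 ± 0.08 (log2 fold change ± SE, n = 24 against 24 libraries, adjusted p = 4.48e-05). The fit across lines takes libraries as replicates of a common LRC effect, so SE and p here do not measure the spread between lines. For CDCA7 the effect differed between lines (adjusted p = 0.036, edgeR test of the difference). HELLS, the partner of CDCA7, fell too (−0.21 ± 0.07). Its single-line estimates were below 0 in all 6 lines, and it was called in 1 of them, DLD1. In the ring, MCM3 fell by 0.24 on the log2 scale (adjusted p = 0.00058) and MCM5 by 0.32 (adjusted p = 0.0030). MCM2, MCM4, MCM6 and MCM7 fell by between 0.25 and 0.29. POLD1, the catalytic subunit of polymerase delta, fell by 0.38 (SE 0.08, adjusted p = 0.00050), and POLE2, the small subunit of polymerase epsilon, fell by 0.535 (SE 0.126, adjusted p = 0.0014). LIG1, the ligase that seals lagging-strand fragments, fell by 0.33 (SE 0.08, adjusted p = 0.0015). With libraries matched by replicate number, LIG1 was lower in LRC in 23 of 24 matches, the highest count of the set. In SW948 and RKO the numbers did not pair the libraries, so the matches there are arbitrary. The same count for all genes is not given. GINS2 fell by 0.41 (adjusted p = 0.0045), TIMELESS, which steadies the fork, by 0.27 (adjusted p = 0.0095), E2F1 by 0.26 (adjusted p = 0.023) and PCNA by 0.23 (adjusted p = 0.047).

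Members that did not pass across lines included CDC6 (−0.27 ± 0.11, adjusted p = 0.058), CDT1 (−0.14 ± 0.08, adjusted p = 0.19), CCNE2 (−0.25 ± 0.12, adjusted p = 0.12) and SLBP, which binds the 3′ end of histone mRNA (−0.08 ± 0.03, adjusted p = 0.11). With the replicate block CDC6 and CDT1 passed (adjusted p = 0.031 and 0.041). CCNE1 lay nearest to 0 of all 42, at −0.05 ± 0.06 (adjusted p = 0.59).

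In RKO, 37 of the 42 genes were lower in LRC and none was higher, against 21% of 12731 genes lower and 41.5% called in either direction. The median was −0.70 against 0.01 for all genes, and in 33 members no LRC library reached any non-LRC library, against 17.8% of all genes. CDCA7 (ENSG00000144354, GRCh37 chr2:174219548-174233725, plus strand) was at 58.1, 60.4, 58.8 and 60.5 CPM in non-LRC and 29.4, 35.4, 36.5 and 36.7 CPM in LRC. That is a change of −0.81 ± 0.08 (adjusted p = 2.29e-06). GINS2 (ENSG00000131153, chr16:85709804-85723679, minus strand), a subunit of the helicase activator, was at 38.5, 36.5, 43.3 and 39.6 CPM in non-LRC and 13.4, 16.4, 23.8 and 17.0 CPM in LRC. Its change was −1.19 ± 0.13 (adjusted p = 5.92e-06). CDC6 (ENSG00000094804, chr17:38444131-38460909, plus strand) was at 87.9, 78.2, 83.6 and 75.2 CPM against 26.4, 37.3, 47.9 and 38.3 CPM, a change of −1.14 ± 0.12 (adjusted p = 6.04e-06). In all 3 genes the groups stood clear of each other, and LRC replicate 1 was the lowest library.

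The ring and the clamp moved with them in RKO. MCM4 was at 428, 415, 414 and 401 CPM in non-LRC and at 167, 240, 286 and 246 CPM in LRC (−0.84 ± 0.12, adjusted p = 4.52e-05). PCNA was at 230, 214, 256 and 230 CPM in non-LRC and at 103, 131, 145 and 141 CPM in LRC (−0.86 ± 0.10, adjusted p = 8.65e-06). E2F1 was at 35.8, 34.1, 40.9 and 34.5 CPM against 16, 21.3, 21.0 and 16.1 CPM (−0.99 ± 0.11, adjusted p = 7.58e-06). By role, all 6 ring subunits, all 4 licensing factors, all 6 helicase activators and all 5 clamp and clamp-loader genes fell, as did 6 of 8 polymerase and primase genes. The 5 members not called were POLD3, POLE, HELLS, E2F8 and CCNE1. CCNE1 (ENSG00000105173, chr19:30302898-30315219, plus strand), the cyclin that partners CDK2 at the entry to S phase, was at 43.4, 41.8, 45.5 and 46.7 CPM in non-LRC and at 40.1, 44.9, 43.4 and 45.2 CPM in LRC. Its groups overlapped and its change was −0.05 ± 0.08 (adjusted p = 0.60), while CCNE2 fell by 0.85 (SE 0.13).

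In DLD1, 29 members were lower in LRC and none was higher, against 7.89% of 13592 genes lower and 14.6% called in either direction. The median was −0.48 against 0.02 for all genes, and 30 members did not overlap between the populations, against 12.1% of all genes. CDCA7 was at 33.3, 35.7, 36.98 and 34.8 CPM in non-LRC and at 23.2, 20.3, 18.0 and 18.0 CPM in LRC (−0.81 ± 0.09, adjusted p = 0.00059). MCM4 (ENSG00000104738) was at 244, 211, 226 and 231 CPM in non-LRC and at 169, 152, 127 and 125 CPM in LRC (−0.66 ± 0.09, adjusted p = 0.0019). Both were lowest in LRC replicates 3 and 4. The count moved with the fit: 39 members were called with the replicate block, where the share of all genes called rose to 33.8%, 39 without replicates 1 and 2, 23 without replicates 3 and 4, and 13 when the spread was shared with the other lines. All 42 estimates were below 0 each time. Leaving out 1 replicate number gave 19 members without 1, 26 without 2, 14 without 3 and 13 without 4. For these fits the share of all genes called is not given.

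By role, all 6 ring subunits, 5 of 6 helicase activators, 4 of 5 clamp and clamp-loader genes, 4 of 8 polymerase and primase genes and all 3 fork protection genes fell in DLD1. FEN1, LIG1, CDCA7 and HELLS fell as well. PCNA fell by 0.57 (SE 0.10, adjusted p = 0.0055) and CDC6 by 0.54 (SE 0.16, adjusted p = 0.044), while CDT1 was at −0.32 ± 0.15 (adjusted p = 0.16). Of the E2F and cyclin E genes only CCNE2 passed (−0.64 ± 0.15, adjusted p = 0.018), with E2F1 at −0.36 ± 0.17 (adjusted p = 0.19) and CCNE1 at −0.05 ± 0.11 (adjusted p = 0.82).

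SW48 gave no call in the unpaired edgeR fit, with 0.796% of all genes called, and 8 members had an unadjusted p under 0.05, as did 13.1% of all genes. Of the 42, 41 were below 0, where 51.6% of all genes were, and the median was −0.37 against −0.01. Replicate numbers paired these libraries (r between 0.19 and 0.61), although non-LRC replicate 1 also correlated with LRC replicate 4 (r = 0.22). With the number as a block 25 members were lower and none was higher, against 9.69% of all genes called in that fit. POLD1 (−0.73 ± 0.08, adjusted p = 0.00074), TIMELESS (−0.50 ± 0.08, adjusted p = 0.0037) and MCM2 (−0.44 ± 0.07, adjusted p = 0.0038) led in the blocked fit. Without replicate 2 and without a block, 7 members were called, and the share of all genes called in that fit is not given. CDCA7 was at 37.7, 38.5, 47.3 and 40.3 CPM in SW48 non-LRC and at 26.7, 30.6, 31.6 and 29.4 CPM in LRC, the only member whose groups did not overlap, against 3.44% of all genes (−0.47 ± 0.10, adjusted p = 0.060, and 0.0039 with the block).

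HT55 and SW948 showed no common direction. In HT55 edgeR called no member and 0% of 13391 genes. An unadjusted p under 0.05 was found for 1 member and 7.51% of all genes, and 20 members lay below 0 and 22 above, with 50.7% of all genes below. In SW948 edgeR called no member and 0% of 13674 genes. An unadjusted p under 0.05 was found for 4 members and 17.2% of all genes, and 27 members lay below 0, with 51.1% of all genes below. DESeq2 called no member in either line, and with the replicate block HT55 again had no call in any gene, while SW948, whose numbers did not pair, had 1 member called, CDCA7 (−0.32 ± 0.09, adjusted p = 0.045).

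In HCT15 the estimates lay mostly above 0. In the unpaired edgeR fit no member was called, with 0.977% of 14017 genes called, and 0 had an unadjusted p under 0.05, against 17.2% of all genes. DESeq2 called 0 members too. Of the 42, 33 lay above 0 and 9 below, where 50.4% of all genes lay below, and the median was 0.12 against 0.00 for all genes. Replicates 1 and 2 were higher than 3 and 4 in both populations, and same-numbered libraries deviated together (r between 0.33 and 0.56). Replicate 1 correlated with 2, and 3 with 4, across the populations as well (r between 0.36 and 0.57), so that the pairing was not particular to the number. With the number as a block, 8 members rose in LRC and 1 fell, about the share of all genes called in that fit (21.3%). The count itself therefore says little of the set. The 8 were CDC6 (0.32 ± 0.06, adjusted p = 0.0017), ORC6, RFC3, FEN1, E2F8, MCM10, E2F2 and RFC5. CDC6 was at 68.0, 77.7, 48.7 and 46.7 CPM in HCT15 non-LRC and at 89.5, 100.1, 60.9 and 51.96 CPM in LRC, higher in LRC in each of the 4 numbers although the groups overlapped. RFC5, a clamp-loader subunit, was at 33.9, 39.1, 32.5 and 26.5 CPM against 47.6, 47.2, 32.9 and 31.7 CPM. LIG1 (ENSG00000105486, chr19:48618702-48673860, minus strand) went from 50.8, 48.7, 36.4 and 33.4 CPM in non-LRC to 42.3, 32.8, 29.99 and 30.2 CPM in LRC, and its blocked change was −0.31 ± 0.08 (adjusted p = 0.0099).

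**Figure D2:**
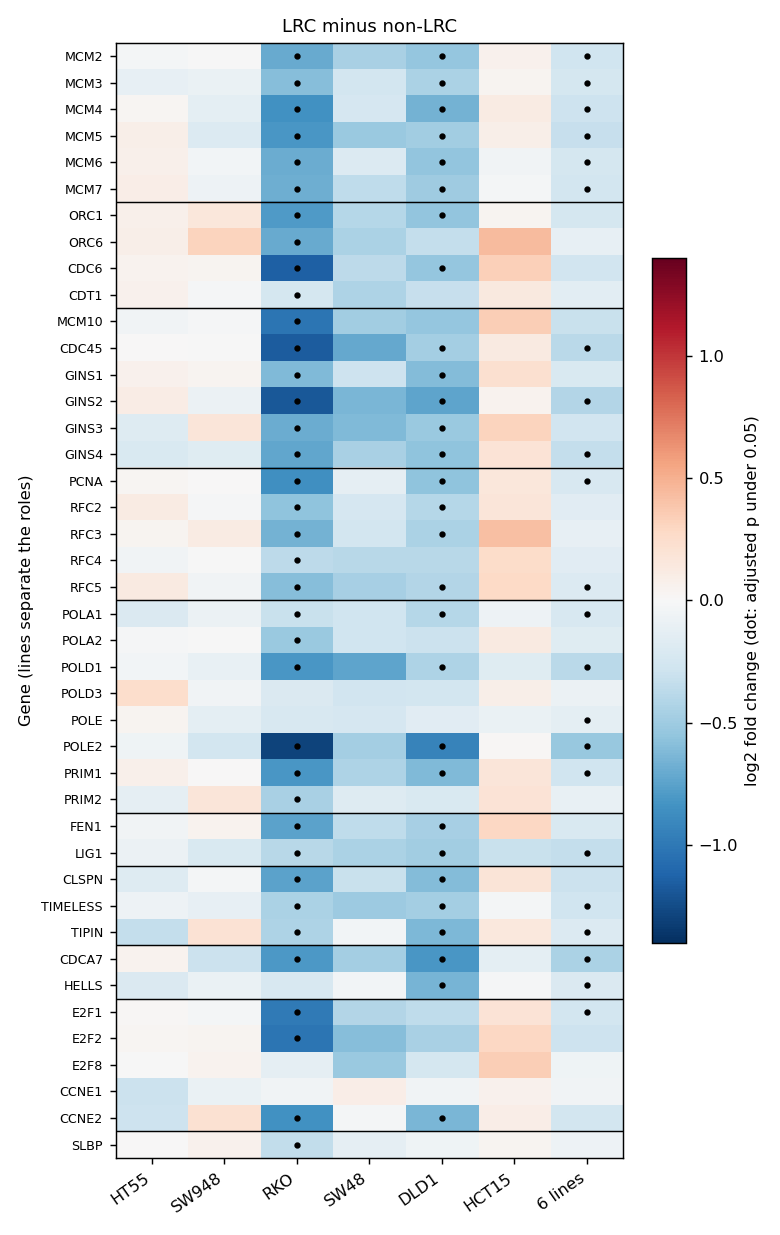
Log2 fold change of LRC over non-LRC (color) for the 42 genes (rows, with black lines between roles) in each line and averaged over the 6 lines (columns), from the unpaired fits; a dot marks an adjusted p under 0.05. RKO holds 37 dots and DLD1 29, HT55, SW948, SW48 and HCT15 hold none, and the HCT15 column is mostly above 0.

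The size of the LRC effect differed between lines. A test of that difference over the 6 lines called 17 of 42 members (edgeR, 5 interaction terms, adjusted p under 0.05), where 14.3% of all genes were called, and 38 with the replicate block, where 33.6% were. MCM4 (adjusted p = 0.0026), CDC6 (adjusted p = 0.0028), RFC5 (adjusted p = 0.0042), E2F1 (adjusted p = 0.0055) and MCM6 (adjusted p = 0.0065) had the smallest p. All 6 ring subunits and 4 of 5 clamp and clamp-loader genes were among the 17. For CDC6 the estimates of the single-line fits ran from −1.14 in RKO over −0.54 in DLD1 and −0.36 in SW48 to 0.04 in HT55 and SW948 and 0.33 in HCT15. The LIG1 estimates lay between −0.49 and −0.08 in all 6 lines, and a difference between lines was not shown (adjusted p = 0.78, and 0.097 with the block). Leaving out replicate 1, 2, 3 or 4 of every group left 1, 28, 4 and 3 members called, with the share of all genes in those fits not given.

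**Figure D3:**
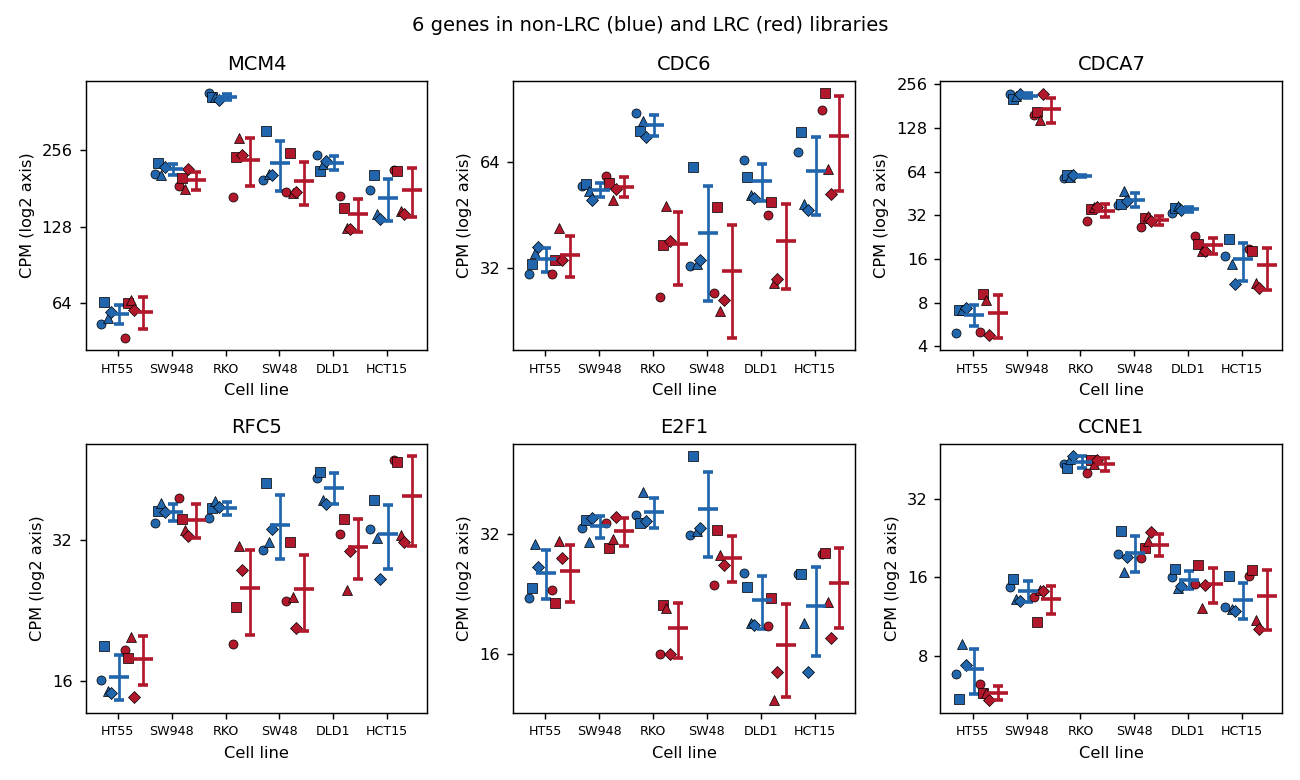
Level of 6 genes (vertical axes, CPM on a log2 scale) in every sorted library, non-LRC in blue and LRC in red, with the mean and SD of 4 libraries beside the points. MCM4, CDC6, RFC5 and E2F1 separate in RKO and not in HT55, CDCA7 separates in RKO, SW48 and DLD1, and CCNE1 overlaps in RKO.

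Between lines, in the non-LRC libraries alone, all 42 genes differed in level, as did 98.3% of 15779 genes, so that the call itself says little of the set. RKO was the highest line for 23 members and HT55 the lowest for 32. The summed level rose from 1187 ± 54.8 CPM in HT55 (SD, n = 4) to 1851 ± 318 in HCT15, 2237 ± 585 in SW48, 2272 ± 101 in DLD1, 2767 ± 130 in SW948 and 3171 ± 102 in RKO. Every HT55 library lay below those of the other lines, HCT15 overlapped with DLD1, and SW48, spread widely by its replicate 2, overlapped with all lines but HT55. In the 15 pairwise comparisons RKO exceeded HT55 for 37 members and was lower for 1, with 78.3% of all genes called, and HCT15 was lower than DLD1 for 15 members and higher for 1, with 49.4% called.

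CDCA7 had the widest range of line means, 4.998 on the log2 scale. It was at 213 ± 8.16 CPM in SW948 (SD, n = 4), 59.5 ± 1.17 in RKO, 41.0 ± 4.38 in SW48, 35.2 ± 1.56 in DLD1, 16.02 ± 4.65 in HCT15 and 6.62 ± 1.12 in HT55. Of the neighbors in this order, only DLD1 and SW48 did not differ past the threshold (adjusted p = 0.16). GINS4 followed with a range of 3.76 (43.5 ± 2.26 CPM in RKO against 3.10 ± 0.37 in HT55) and CCNE2 with 2.98 (32.9 ± 3.15 against 4.09 ± 0.74 CPM), and both share over 20% of their exonic bases with another gene. E2F1 had the narrowest range, 0.81, from 21.1 ± 5.33 CPM in HCT15 to 36.98 ± 8.91 CPM in SW48, and MCM3 (0.83) and PRIM2 (0.85) came next. HT55, lowest for most members, held MCM3 at 184 ± 11.7 CPM, close to DLD1 (193 ± 9.87 CPM, adjusted p = 0.66). Per kilobase of exon, which allows genes to be compared, PCNA was the most abundant member in RKO non-LRC (166 CPM per kb) and MCM3 in HT55 (50.4 CPM per kb).

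Of 38 other replication genes 11 were lower across the 6 lines and none was higher (median −0.14), against 10.7% of all genes lower, led by POLD2 (−0.29 ± 0.04, adjusted p = 9.22e-07), the maintenance methyltransferase DNMT1 (−0.31 ± 0.06) and CHTF18 (−0.35 ± 0.08). Of 8 genes that supply nucleotides 6 were lower (median −0.29), led by NME1 (−0.32 ± 0.06), DTYMK (−0.29 ± 0.07) and DUT (−0.30 ± 0.09). Of 10 other E2F and pocket-protein genes TFDP1 (−0.19 ± 0.03), E2F4 (−0.17 ± 0.04) and E2F5 (−0.18 ± 0.05) were lower, and of 15 mitotic genes CDC20 (−0.32 ± 0.10), AURKB (−0.34 ± 0.12) and CCNB2 (−0.34 ± 0.12) were. In single lines, 23 of 38 other replication genes, 8 of 8 nucleotide genes and 10 of 15 mitotic genes fell in RKO, where 21% of all genes did, and 18, 8 and 11 did in DLD1, where 7.89% of all genes did and 1 other replication gene rose. In HCT15 all 15 mitotic genes lay above 0 (median 0.32) and none was called. Of the markers of other cell types, CD68, a lysosomal protein of macrophages, rose across lines (0.77 ± 0.14, adjusted p = 4.22e-05) while PTPRC was at −0.08 ± 0.24 (adjusted p = 0.85) and CD3E did not pass the filter on low counts. In RKO CD68 rose by 0.30. Of 8 epithelial markers 1 fell and none rose, and the part of these in the fall of the replication genes was not tested.

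The DLD1 control experiment asked what time in culture and CFSE alone do to the same genes. In unlabeled cells the summed level was 3899, 3873, 3901 and 2125 CPM on day 1 and 1785, 2611, 2150 and 2187 CPM on day 5. The value of 2125 CPM belongs to the library that stood apart, and the other 3 day 1 libraries lay above all day 5 libraries. In CFSE-labeled cells the summed level was 2994, 3127, 3599 and 3644 CPM on day 1 and 4262, 4166, 3337 and 3312 CPM on day 5. Replicates 1 and 2 and replicates 3 and 4 formed separate pairs in both CFSE groups, low and high on day 1 and high and low on day 5. The comparisons below share these 4 groups, so their values are given side by side and are not independent.

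**Figure D4:**
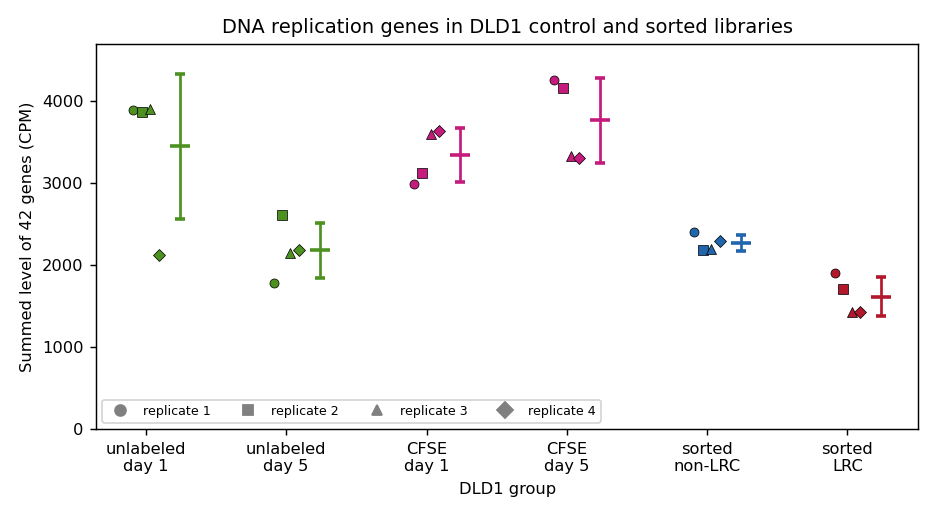
Summed level of the 42 genes (vertical axis, CPM, from 0) in every DLD1 library by group, with a marker shape for each replicate number and the mean and SD of 4 libraries beside the points. Unlabeled day 1 replicate 4 sits at 2125 CPM among the day 5 libraries, and the labeled day 5 libraries sit above all unlabeled day 5 libraries.

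With time in unlabeled cells, 34 of 42 members fell and none rose (13.1% of 14518 genes fell, 25.5% were called in either direction), and the median was −0.72 against 0.04. Without the library that stood apart 40 fell, with 42.1% of all genes called. POLE2 was at 13.3, 13.5, 14.3 and 7.83 CPM on day 1 and at 4.47, 5.93, 4.70 and 5.55 CPM on day 5 (−1.24 ± 0.20, adjusted p = 0.0055, and −1.48 ± 0.17 without that library). POLE, the catalytic subunit of the same polymerase (−1.17 ± 0.23, adjusted p = 0.0068), and RFC4 (−1.20 ± 0.24, adjusted p = 0.0071) came next, at −1.44 ± 0.19 and −1.52 ± 0.16 without that library. When replicate 1, 2 or 3 of every group was left out and replicate 4 kept, no member and no gene was called, and 39 members were called without replicate 4.

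In CFSE-labeled cells 1 member fell over the same interval and 4 rose, where 19.1% of all genes fell and 20.2% rose. POLE fell (−0.73 ± 0.23, adjusted p = 0.018), and POLA1, MCM6, PCNA and FEN1 rose, with 39.3% of all genes called in either direction. POLA1, the catalytic subunit of the primer-making polymerase, rose from 28.6, 28.6, 44.6 and 42.4 CPM to 67.4, 69.4, 58.5 and 55.6 CPM (0.76 ± 0.17, adjusted p = 0.0030). MCM6 rose by 0.60 (SE 0.19, adjusted p = 0.022), PCNA by 0.47 (SE 0.16, adjusted p = 0.027) and FEN1 by 0.52 (SE 0.18, adjusted p = 0.031). The median of the 42 was 0.07 against 0.02 for all genes. The split depended on the scaling, since 3 fell and 1 rose with library size alone. The count was 1 without replicate 1 or 2, 2 without replicate 3, 9 without replicate 4 and 10 without the library that stood apart. These counts stand without the share of all genes in the same fits, so they show only how far the number moved.

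On day 1, 1 member was higher and 1 lower with CFSE, where 9.73% of all genes were higher and 12% lower. ORC6 was at 55.9, 56.3, 44.7 and 44.9 CPM with CFSE and 38.5, 39.9, 38.2 and 21.1 CPM without (0.58 ± 0.20, adjusted p = 0.042), and POLA1, at 55.7, 56.4, 57.98 and 36.8 CPM without CFSE, was lower with it (−0.49 ± 0.17, adjusted p = 0.049). Together 21.8% of all genes were called. Without the library that stood apart ORC6 was not called, and LIG1 (−0.82 ± 0.18), POLA1 (−0.66 ± 0.17), POLA2, E2F8 and FEN1 were lower with CFSE. The share of all genes called in that fit is not given. On day 5, 32 of 42 members were higher with CFSE and none was lower, against 3.11% of all genes higher and 5.13% called. All 42 were above 0 (54% of all genes were below 0), the median was 0.80 against −0.03, and 40 members did not overlap between the groups, against 9.29% of all genes. MCM10, which helps switch the helicase on, was at 63.3, 60.8, 47.4 and 46.9 CPM with CFSE and at 17.9, 28.0, 22.5 and 24.7 CPM without (1.22 ± 0.21, adjusted p = 0.016). GINS1 was at 49.7, 54.4, 43 and 46.8 CPM with CFSE and 29.3, 27.1, 26.3 and 28.0 CPM without (0.80 ± 0.13, adjusted p = 0.016), and ORC6 was 1.06 ± 0.20 higher (adjusted p = 0.017). None of these day 5 values comes from the library that stood apart, which enters the fit only through the shared spread, and without it 39 members were higher. No member was called on day 5 when replicate 1, 2 or 3 of every group was left out, although all 42 estimates were above 0 each time, and 37 were called without replicate 4.

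The change of the CFSE effect from day 1 to day 5 was above 0 in all 42 members (median 0.84 against −0.01), and 4 were called: POLA1 (1.21 ± 0.24, adjusted p = 0.031), FEN1 (1.22 ± 0.26, adjusted p = 0.037), GINS1 (0.84 ± 0.18, adjusted p = 0.041) and POLA2 (1.30 ± 0.29, adjusted p = 0.043). Of all genes 0.847% were called higher and 0.999% in either direction. Without the library that stood apart 33 members were called, with 6.09% of all genes, and POLA1 was at 1.39 ± 0.23, FEN1 at 1.43 ± 0.21, GINS1 at 1.03 ± 0.14 and POLA2 at 1.54 ± 0.22. No member was called without replicate 1, 2 or 3 of every group.

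With time in unlabeled cells 19 of 38 other replication genes, 6 of 15 mitotic genes and 1 of 8 nucleotide genes were lower, where 13.1% of all genes were, and 26, 12 and 8 were without the library that stood apart. With time in labeled cells 5 other replication genes were lower and 6 higher, a share no larger than that of all genes (19.1% lower and 20.2% higher), while 6 mitotic and 6 nucleotide genes were higher. Without that library these counts were 7 lower and 7 higher, 6 and 6. With CFSE on day 5, 17 other replication genes, 11 mitotic genes and 4 nucleotide genes were higher, where 3.11% of all genes were, and 23, 12 and 8 were without that library, where 13.3% of all genes were called in either direction. For scale, the sorted DLD1 libraries, all CFSE-labeled, held 1425 to 2406 CPM in sum and lay below every labeled control library of day 1 and day 5. The unlabeled day 5 controls held 1785 to 2611 CPM. The sorted non-LRC libraries (2188 to 2406 CPM) lay within that range, and the LRC libraries (1425 to 1905 CPM) overlapped its lower end.

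**Figure D5:**
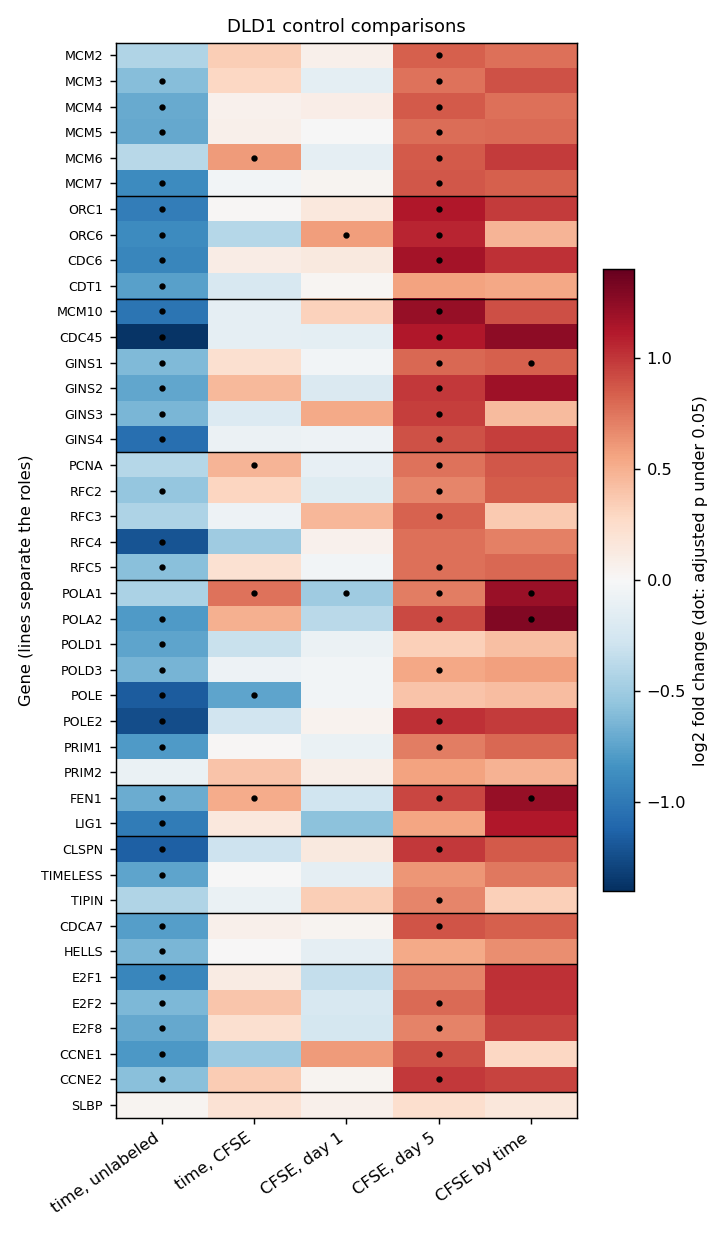
Log2 fold change (color) of the 42 genes (rows, with black lines between roles) in the 5 DLD1 control comparisons (columns), from the fit with all 16 control libraries; a dot marks an adjusted p under 0.05. Dots fill most of the time column of unlabeled cells (34) and of the CFSE column of day 5 (32), in opposite colors, and the comparisons share libraries.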

How the data were processed

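RNA was sequenced as single-end 50 base reads. The authors deposited raw counts per Ensembl gene for each of the 64 libraries. The submitters' processing notes name hg19, TopHat, HTSeq and DESeq, and the annotation and versions are not given in the sources used here. Reads assigned to no gene (5.19 to 14.8% of reads) and other summary rows were left out of library sizes. In the DLD1 controls that share was 8.96 to 14.8% on day 1 and 5.19 to 8.35% on day 5. Its part in the time comparisons was not tested. Identifiers were matched to symbols through gene tables, and positions are GRCh37 (GENCODE 44 lifted). edgeR 4.0.16 (R 4.3.3) quasi-likelihood tests covered genes that reached 10 counts in 4 or more libraries of the fit, with TMM scaling and Benjamini-Hochberg adjustment at 0.05. Lines were fitted alone, the 48 sorted libraries together, and the 16 controls together. Log2 CPM used a prior count of 2. Scripts were tested on simulated data. Alternatives were DESeq2 1.42.0, RLE scaling, library size alone, other filters, a replicate block, and leaving out replicates or lines. Numbers pair samples where every same-number correlation of deviations exceeded 0.1, as in HT55, SW48, DLD1 and HCT15. The pairing comes from the labels' numbers alone. In DLD1 and HCT15 replicates 1 and 2, and 3 and 4, also correlated across numbers (r between 0.24 and 0.57). Some pairs of unlike numbers also exceeded 0.1 in HT55 (up to r = 0.25) and SW48 (up to r = 0.22). The members and lists were chosen with earlier results of these data known. Genes named were, across lines, the smallest p of each role; the 5 smallest p for a difference between lines; in each line the 2, and in each control comparison the 3, called members of smallest p in each direction; the 3 widest and 3 narrowest ranges between lines; the 3 smallest p of each companion list; and CDC6, CDT1, PCNA, E2F1, CCNE1, CCNE2 and MCM2 to MCM7. Others named, such as POLE2 across lines and the leading genes of the blocked fits, were picked after their values were seen or complete a count.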

Additional observations from a re-analysis of the deposited data

Results flagged for a closer look

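In 58 groups of 4 libraries whose values are printed by sample, the gap between the extreme library and its nearest neighbor, over the whole range of the group, was compared with Dixon's critical value for 4 samples, and 5 exceeded it where chance gives about 1 in 20. The library labeled unlabeled day 1, replicate 4, accounted for 4 of the 5: its summed level of the 42 genes was 2125 CPM, and it held POLE2 at 7.83 CPM, POLA1 at 36.8 CPM and ORC6 at 21.1 CPM, each below the other 3 libraries of its group. The fifth was replicate 2 of SW48 LRC, with a summed level of 2365 CPM, and replicate 2 of SW48 non-LRC was also the highest of its group.

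The LRC effect differed between lines by a test of the difference itself in 17 members. The adjusted p was 0.0026 for MCM4, 0.0028 for CDC6, 0.0042 for RFC5, 0.0055 for E2F1 and 0.0065 for MCM6. The CFSE effect differed between day 1 and day 5 in 4 members, with an adjusted p of 0.0314 for POLA1, 0.0375 for FEN1 and 0.0408 for GINS1 among them.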

How the results depend on the processing

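Counts of members called are compared here with 22 across lines, 29 in DLD1, 17 for the difference between lines, 34 and 5 for time without and with CFSE, 2 and 32 for CFSE on day 1 and day 5, and 4 for CFSE by time. Across lines the count was 5 without RKO, 10 without DLD1 and 13 to 19 with 1 replicate number left out. In DLD1 it was 13 with all 48 libraries in 1 fit and 13 to 26 with a number left out. In SW48 it was 1 with DESeq2, library size alone or all 48 libraries, 2 with no filter, 25 with the replicate block and 0 to 7 with a number left out. In SW948 CDCA7 was the 1 call with no filter or with the block, and 0 to 1 was called with a number left out. In HCT15 the block gave 9. The difference between lines was called for 29 members with no filter, 38 with the block and 1 to 28 with a number left out. Time with CFSE gave 3 with 10 counts required in every sample, 10 without the library labeled unlabeled day 1, replicate 4 (an alternative chosen after seeing the data, as were the replicate pairs left out in DLD1), and 1 to 9 with a number left out, and time without CFSE 0 to 39, with 40 without that library. CFSE on day 1 gave 4 with DESeq2 or the block, 1 with RLE, 0 with library size alone, 5 without that library and 0 to 4 with a number left out. CFSE on day 5 gave 0 to 37. CFSE by time gave 15 with DESeq2, 2 with RLE or library size alone, 21 with no filter, 33 without that library and 0 to 32 with a number left out. The cause was not tested. The block changed no other count by over 1.5 times, in SW948, RKO and the controls the libraries share only a number, and the counts in HT55 (0), RKO (34 to 37 with a number left out) and for levels (42) did not move that far. The results followed for named members were each classed as the same, stronger or weaker under the alternatives run. They do not cover every value printed above, and a difference over the 6 lines has no sign. Where a count from an alternative fit stands here or above without the share of all genes, it shows only how far the count moved. At this depth a member under 2 CPM, such as POLE2 in HT55, rests on few reads.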
